A study of Mus musculus with 16 samples.

Results

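The small GTPase Cdc42, its 5 effectors Cdc42ep1 to Cdc42ep5 and 4 septins (Septin2, Septin7, Septin9 and Septin11) were followed across 8 mouse mammary fibroblast lines. The genes were taken as a list, and every probe that the array annotation assigns to one of them was used, with the older Sept symbols accepted. That gave 12 of the 25697 probes, for 9 of the 10 listed genes among 16593 named genes on the array, because no probe carried the name or gene number of Septin11. A probe was tested where its detection p-value against the array's negative controls was under 0.01 on at least 2 of the 16 arrays. This left 7 of the 12 probes, 1 each for Cdc42, Cdc42ep2, Cdc42ep3, Cdc42ep4, Cdc42ep5, Septin2 and Septin9, among 10453 tested probes in all.

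The lines are of the FVB/N strain, and all of them carry papillomavirus E6, used to immortalize them. The normal mammary gland gave lines NF2 and NF3. The lesion lines stem from MMTV-PyMT mice: HpAF1 from a hyperplasia, AdAF1 from an adenoma, and 4 lines, CAF1 to CAF4, from carcinoma. In these mice the polyoma middle T oncogene is driven by a mammary tumour virus promoter active in epithelium. Each line was grown for 72 h on a Matrigel and collagen I gel with serum and has 2 Illumina arrays. The labels number these as replicates 1 and 2, and they are called cultures 1 and 2 here. Hyperplasia and adenoma were each represented by 1 line. The sources used here do not say whether lines came from separate mice or what separates the 2 cultures of a line, so tests that take cultures as replicates measure only the spread between these cultures, which may be technical.

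Cdc42 is a small GTPase that sets cell polarity and builds filopodia and other actin structures when bound to GTP. The Cdc42ep proteins, also called Borg proteins, bind GTP-loaded Cdc42 through a CRIB motif and bind septins through a separate conserved domain. Septins are GTP-binding proteins that join into hetero-oligomers and filaments alongside actin and membranes. In cancer-associated fibroblasts, Cdc42ep3 is known as a link between the actin and septin networks.

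The promoters of Cdc42ep3, Cdc42ep5 and Cdc42ep4 are printed because Cdc42ep5 and Cdc42ep4 were called among the lines (7 and 4 of 28 pairs) and Cdc42ep3, with 1 pair called and an F test that did not pass, is the gene whose NF3 cultures lie furthest apart. Each window runs from 250 bases before to 50 bases after a transcript start of the RefSeq annotation (GRCm38.p6) and is given on the strand of the gene, which is the minus strand for all 3. Capitals mark GC boxes (GGGCGG, bound by Sp1 family factors) and the TEAD motif (GGAATG), each in either orientation. The windows lie at chr17:79355042-79355341 for Cdc42ep3, chr7:4164656-4164955 for Cdc42ep5 and chr11:113751111-113751410 for Cdc42ep4.
Cdc42ep3: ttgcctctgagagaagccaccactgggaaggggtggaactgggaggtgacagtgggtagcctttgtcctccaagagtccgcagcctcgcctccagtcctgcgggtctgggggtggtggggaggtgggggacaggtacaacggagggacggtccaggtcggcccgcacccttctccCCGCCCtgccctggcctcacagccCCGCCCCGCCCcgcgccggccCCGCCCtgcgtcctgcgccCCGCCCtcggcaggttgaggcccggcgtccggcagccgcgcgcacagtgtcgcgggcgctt
Cdc42ep5: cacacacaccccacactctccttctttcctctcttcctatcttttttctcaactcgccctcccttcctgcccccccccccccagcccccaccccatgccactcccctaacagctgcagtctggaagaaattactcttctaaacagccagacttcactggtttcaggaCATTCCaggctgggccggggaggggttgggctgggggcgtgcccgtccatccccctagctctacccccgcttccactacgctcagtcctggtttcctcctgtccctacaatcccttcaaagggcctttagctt
Cdc42ep4: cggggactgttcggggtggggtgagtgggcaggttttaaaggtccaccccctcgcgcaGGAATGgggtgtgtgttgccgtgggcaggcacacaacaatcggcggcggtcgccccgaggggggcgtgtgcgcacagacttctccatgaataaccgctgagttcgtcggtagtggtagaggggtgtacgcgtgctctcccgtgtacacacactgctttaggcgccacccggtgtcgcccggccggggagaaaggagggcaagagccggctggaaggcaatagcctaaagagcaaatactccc

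The 3 windows differ in composition. The Cdc42ep3 window holds 5 GC boxes, whose first bases lie at -75, -51, -46, -30 and -11 from the start, the pair at -51 and -46 overlapping by 1 base. It has 27 CpG dinucleotides, against a median of 7 over all 32851 RefSeq windows of this length. The Cdc42ep5 window has 6 CpG dinucleotides, no GC box and 1 TEAD motif at -83. The Cdc42ep4 window has 24 CpG dinucleotides and 1 TEAD motif at -192, and a second annotated Cdc42ep4 start, with its window at chr11:113751766-113752065, has neither motif. A GC box occurs in 35.7% and the TEAD motif in 14.7% of all windows. None of these windows holds an AP-1 motif (TGACTCA or TGAGTCA, 5.20% of all windows), a TATA box (TATAAA, 13.6%) or a CArG box (1.63%), searched on both strands. Such matches describe letters only, and no binding was measured.

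Between 7445 and 9823 probes per array were detected. Of the fibroblast markers checked, 9 of 9 were detected on at least 2 arrays. None of 8 epithelial and none of 4 leukocyte marker probes reached detection on 2 arrays. Pericyte markers summed to 1014 on the linear scale in CAF2, against 172 to 244 in the other lines, through Mcam, Cspg4 and Rgs5. Of the 5 pericyte markers, 2 were detected on at least 2 arrays, Rgs5 on 1 array, and Abcc9 and Kcnj8 on none. Adipocyte markers summed to 301 in CAF2, against 129 to 168 elsewhere, through Adipoq (1 of 4 markers detected on at least 2 arrays, the other 3 on none). Of 5 endothelial markers, Tek alone was detected, and their sum ran between 196 and 290. Mesothelial markers summed to 1097 in HpAF1, against 245 to 367 elsewhere, through Upk3b and Wt1 (3 of 6 markers detected on at least 2 arrays, with Msln and Lrrn4 on none). Other mesothelial markers went the other way: Krt19, detected on 1 array, was lowest in HpAF1 (4.57), and Upk1b was higher in NF3 (7.59) than in HpAF1 (7.32). The cultures of NF3 were the least alike of any line, with a correlation of 0.936 over probes, against 0.994 for CAF1, the most alike.

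Cdc42ep3 (17:79333723-79355091) was high in HpAF1, AdAF1 and CAF1. Levels are normalized log2 intensities, compared only within a probe, and gene positions are those of RefSeq (GRCm38.p6). The 2 cultures read 8.94 and 7.96 in NF2, 9.54 and 6.62 in NF3, 10.20 and 10.16 in HpAF1, and 10.39 and 10.14 in AdAF1. CAF1 cultures gave 10.63 and 10.65, CAF2 cultures 9.88 and 9.31, CAF3 cultures 8.70 and 8.17, and CAF4 cultures 9.39 and 8.78. Every array of HpAF1, AdAF1 and CAF1 thus lay above every array of the other 5 lines. Both arrays of NF2, CAF3 and CAF4 and 1 of CAF2 lay between the NF3 cultures. Culture 2 of NF3 was the only one of the 16 arrays on which Cdc42ep3 was not detected (detection p 0.0150, raw intensity 189, against up to 2000 elsewhere).

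By line mean the order for Cdc42ep3 was CAF1 (10.64), AdAF1 (10.27), HpAF1 (10.18), CAF2 (9.60), CAF4 (9.08), NF2 (8.45), CAF3 (8.43) and NF3 (8.08). No neighbours in this order differed at an adjusted p under 0.05. An F test over the 8 lines in limma, with cultures as replicates, gave an adjusted p of 0.0629. Over all 28 pairs of lines the 7 probes gave 13 calls among 196 probe and pair combinations, against 7.03% over all probes. For Cdc42ep3, 1 pair was called: CAF1 exceeded NF3 by 2.57 (SE 0.69, adjusted p 0.0458), a 5.92-fold difference, in a comparison that called 6.89% of all probes. That call rests on culture 2 of NF3, the array without detection: without it the difference was 1.11 (SE 0.41, adjusted p 0.147) and was not called, and without culture 1 it was 4.03 (SE 0.41, adjusted p 0.000423). In these bulk RNA samples, fewer cells of one kind and less RNA per cell cannot be told apart.

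**Figure D1:**
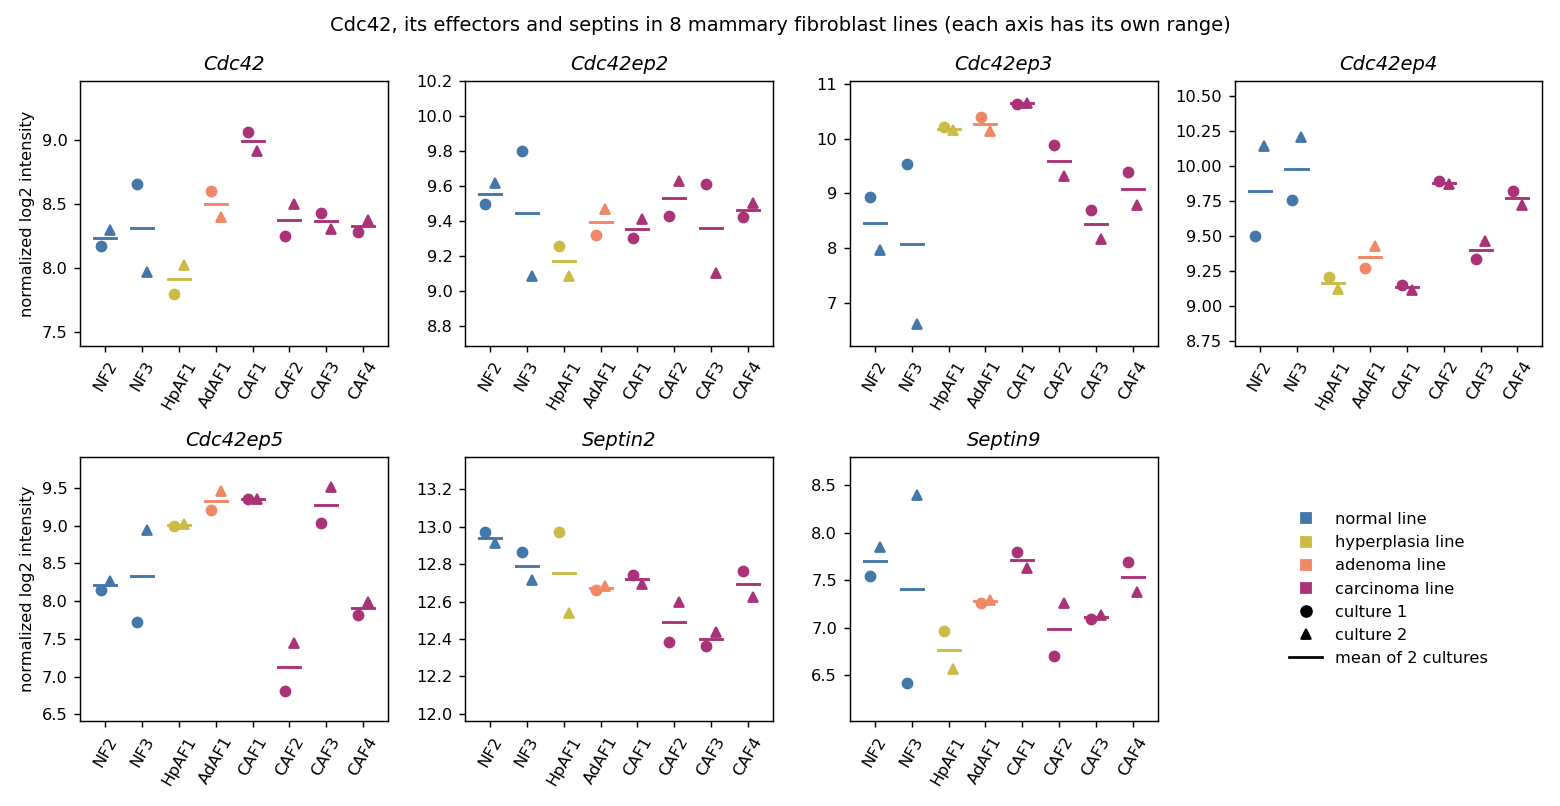
Normalized log2 intensity (vertical axes, each with its own range) of the 7 tested genes in the 8 lines (horizontal axes, ordered by stage). Circles and triangles are the first and second culture of a line, bars are the mean of both, and colours mark the stage. The Cdc42ep3 points of HpAF1, AdAF1 and CAF1 lie between 10.14 and 10.65, above all other lines, and those of NF3 lie at 9.54 and 6.62.

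The F test and the number of called pairs for Cdc42ep3 also changed with the NF3 cultures. Cdc42ep3 differed between NF3 cultures by 2.92, against at most 0.98 within any other line. Without culture 1 of NF3 the F test gave an adjusted p of 0.000418, and without culture 2 it gave 0.00303. These fits called 34.4% and 32.5% of all probes, and they assume that the remaining NF3 array varies like the other lines. Without culture 2, 9 of 28 pairs were called, where 9.01% were called over all probes and pairs. All 9 were also among the 15 called without culture 1, where 9.81% were called overall. Without culture 1, HpAF1 exceeded NF2 by 1.73, AdAF1 exceeded NF2 by 1.82 and CAF1 exceeded NF2 by 2.19, and each was called. Within the carcinoma lines, CAF3 lay below CAF1 in that fit with a difference of -2.21, also called. Each SE was 0.34, against 0.69 for the same differences with all arrays, where none was called.

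Other genes also differed between these 2 arrays. Septin9 read 6.41 and 8.40 and Cdc42ep5 read 7.73 and 8.95 in cultures 1 and 2 of NF3, so culture 1 was lower by 1.99 and 1.22, the opposite direction to Cdc42ep3. Cdc42 and Cdc42ep2 were higher in culture 1, by 0.68 and 0.72. Over all probes the median absolute gap between NF3 cultures was 0.39. The number of detected probes differed little between them (7602 and 7445), whereas the cultures of NF2 differed by 1671 and those of AdAF1 by 1344 detected probes, with smaller gaps in Cdc42ep3. The part of culture conditions in these gaps was not tested.

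**Figure D2:**
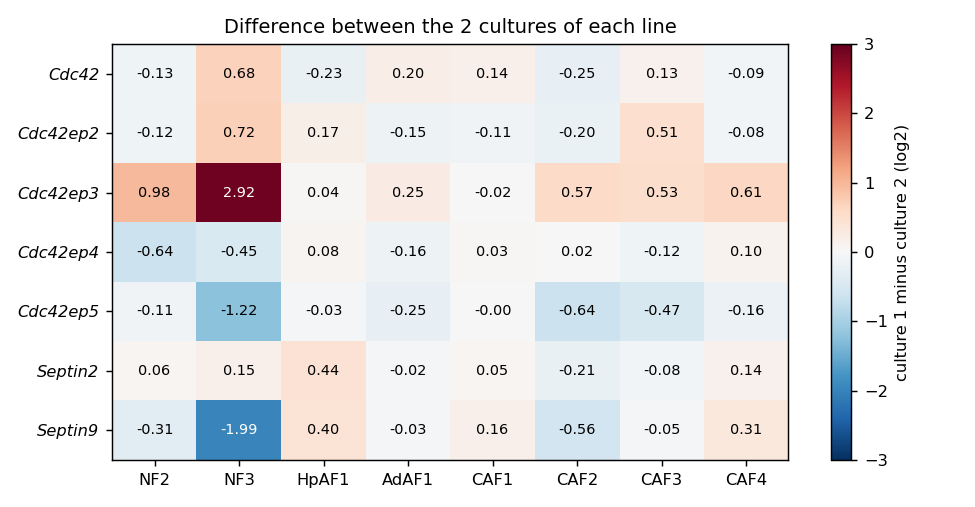
Difference between the cultures of each line (culture 1 minus culture 2, log2) for the 7 tested genes in rows and the 8 lines in columns, with the colour running from blue (culture 2 higher) to red (culture 1 higher). The NF3 column holds the widest gap for Cdc42ep3 (2.92), Septin9 (-1.99) and Cdc42ep5 (-1.22), while HpAF1 and CAF1 differ by 0.04 and -0.02 for Cdc42ep3.

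Cdc42ep5 (7:4151260-4164831), another member of the Borg family, differed among the lines, with low levels in CAF2 and CAF4. The cultures read 8.15 and 8.26 in NF2, 7.73 and 8.95 in NF3, 8.99 and 9.02 in HpAF1, and 9.20 and 9.46 in AdAF1. CAF1 cultures both gave 9.35, CAF2 cultures 6.81 and 7.45, CAF3 cultures 9.04 and 9.51, and CAF4 cultures 7.82 and 7.98. Both CAF2 arrays lay below every other array, and the carcinoma lines spanned the full range, from CAF1 at the top (mean 9.35) to CAF2 at the bottom (mean 7.13).

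The F test over lines called Cdc42ep5 (adjusted p 0.00343) and Cdc42ep4, 2 of the 7 tested probes, where it called 25.1% of all tested probes. For Cdc42ep5, 7 of the 28 pairs were called, each with an SE of 0.34. CAF2 fell short of HpAF1 with a difference of -1.88 (adjusted p 0.00252), of AdAF1 with -2.20 (0.00209) and of CAF1 with -2.22 (0.00141), and CAF3 exceeded CAF2 by 2.15 (0.00281). These comparisons called 23.5%, 7.94%, 14.8% and 8.00% of all probes. CAF4 lay below HpAF1 with -1.10 (0.0440), below AdAF1 with -1.43 (0.0355) and below CAF1 with -1.45 (0.0229), where 18.1%, 4.58% and 8.72% of all probes were called.

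In the order of line means CAF1 (9.35), AdAF1 (9.33), CAF3 (9.28) and HpAF1 (9.00) stood above NF3 (8.34), NF2 (8.21), CAF4 (7.90) and CAF2 (7.13), and no neighbours differed at an adjusted p under 0.05. HpAF1, AdAF1, CAF1 and CAF3 exceeded NF2 by 0.80 to 1.14, and CAF2 was below NF2 with -1.08. With all arrays none of these differences was called. Without culture 1 of NF3 all of them were, in a fit that leaves only the other NF3 array and called more pairs over all probes too. CAF2 was also the line of the high pericyte and adipocyte marker sums (1014 and 301). The part of those markers in the low Cdc42ep5 of CAF2 was not tested.

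Cdc42ep4 (11:113726850-113752543), which also binds Cdc42 and septins, was lowest in CAF1 and HpAF1. The cultures read 9.50 and 10.14 in NF2, 9.75 and 10.21 in NF3, 9.20 and 9.12 in HpAF1, and 9.27 and 9.43 in AdAF1. CAF1 cultures gave 9.15 and 9.11, CAF2 cultures 9.89 and 9.87, CAF3 cultures 9.34 and 9.46, and CAF4 cultures 9.82 and 9.72. The arrays of HpAF1, AdAF1, CAF1 and CAF3 all lay below those of NF2 and NF3, and those of CAF2 and CAF4 lay among them.

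The F test called Cdc42ep4 by a narrow margin (adjusted p 0.0449), and the whole range of its line means was 0.85. The call was lost without any single array of the 6 lesion lines (adjusted p 0.0639 to 0.123) and was kept without any single array of the normal lines (0.0133 to 0.0486). HpAF1 was below NF3 with a difference of -0.82 (SE 0.22, adjusted p 0.0336), where 12.6% of probes were called, and CAF1 was below NF3 with -0.85 (SE 0.22, 0.0430). CAF2 exceeded HpAF1 by 0.72 (SE 0.22, 0.0368) and CAF1 by 0.75 (SE 0.22, 0.0427). Without culture 2 of NF3 the comparisons of HpAF1 and CAF1 with NF3 were no longer called, and the 2 with CAF2 were. HpAF1 was the line of the high mesothelial marker sum (1097). The part of those markers in its Cdc42ep4 level was not tested.

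Cdc42 itself (4:137319696-137357759) was highest in CAF1 and lowest in HpAF1. Its detected probe read 8.17 and 8.30 in NF2, 8.65 and 7.97 in NF3, 7.80 and 8.03 in HpAF1, and 8.60 and 8.40 in AdAF1. CAF1 cultures gave 9.06 and 8.92, CAF2 cultures 8.25 and 8.50, CAF3 cultures 8.43 and 8.30, and CAF4 cultures 8.29 and 8.37. Both CAF1 arrays lay above every other array, and the NF3 cultures enclosed all arrays of NF2, AdAF1, CAF2, CAF3 and CAF4.

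CAF1 exceeded HpAF1 by 1.08 (SE 0.22, adjusted p 0.0105), a 2.11-fold difference and the only pair called for Cdc42, in a comparison that called 12.6% of probes. The F test did not pass (adjusted p 0.0811). Without line NF3 the F test gave an adjusted p of 0.0159, and the share called over all probes is not given for that run. CAF1 also stood above NF2 by 0.75 (SE 0.22, limma adjusted p 0.109) and above the other 3 carcinoma lines. With all arrays none of these pairs was called. Without culture 1 of NF3 all of them were, in a fit that leaves only the other NF3 array and called more pairs over all probes too. HpAF1 was the line of the high mesothelial marker sum (1097), whose part in its Cdc42 level was not tested. The 2 further Cdc42 probes were detected on 0 of 16 arrays, with levels of 4.63 to 5.24, and bear on none of these values.

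Cdc42ep2 and Cdc42ep1 showed no called difference. Cdc42ep2 (19:5917556-5924816) was detected on all 16 arrays. It read 9.50 and 9.62 in NF2, 9.80 and 9.09 in NF3, 9.26 and 9.09 in HpAF1, and 9.32 and 9.47 in AdAF1. CAF1 cultures gave 9.30 and 9.41, CAF2 cultures 9.43 and 9.63, CAF3 cultures 9.61 and 9.11, and CAF4 cultures 9.42 and 9.51. The NF3 cultures spanned the whole range of the 16 arrays, the line means spanned 0.38, with 3.69% of tested probes spanning less, and the F test gave an adjusted p of 0.849. Cdc42ep1 (15:78842647-78850902) was above the negative controls on 1 array only, from CAF4, and its values of 5.31 to 6.36 were not tested.

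Of the septins, Septin2 (1:93478981-93509733), a core filament subunit, showed no called difference between lines. It read 12.97 and 12.91 in NF2, 12.86 and 12.71 in NF3, 12.97 and 12.54 in HpAF1, and 12.66 and 12.68 in AdAF1. CAF1 cultures gave 12.74 and 12.70, CAF2 cultures 12.39 and 12.60, CAF3 cultures 12.36 and 12.44, and CAF4 cultures 12.76 and 12.62. All 6 lesion line means lay below both normal means, as for 2.95% of all tested probes, but arrays of HpAF1, CAF1 and CAF4 overlapped those of NF3 and the F test did not pass (adjusted p 0.301, 0 of 28 pairs called). A second Septin2 probe was detected on 0 arrays.

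Septin9 (11:117199661-117362325), a subunit of the longer septin complexes, differed most within NF3. It read 7.55 and 7.85 in NF2, 6.41 and 8.40 in NF3, 6.97 and 6.56 in HpAF1, and 7.26 and 7.29 in AdAF1. CAF1 cultures gave 7.79 and 7.63, CAF2 cultures 6.70 and 7.26, CAF3 cultures 7.09 and 7.14, and CAF4 cultures 7.69 and 7.38. The NF3 cultures enclosed the values of every other line, and culture 1 of NF3 was the only array on which the probe was not detected (detection p 0.0175).

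With all arrays the Septin9 F test gave an adjusted p of 0.535 and no pair was called. Without line NF3 the F test gave an adjusted p of 0.0349, and the share called over all probes is not given for that run. HpAF1 was below NF2 with a difference of -0.93, CAF1 exceeded HpAF1 by 0.95 and CAF4 exceeded HpAF1 by 0.77 (each SE 0.47). Of the pairs without HpAF1 or NF3, CAF2 was below CAF1 with -0.73 (SE 0.47). HpAF1 was the line of the high mesothelial marker sum (1097) and CAF2 that of the high pericyte and adipocyte sums (1014 and 301), and their part in the Septin9 levels was not tested. Septin7 (9:25251991-25308571), the subunit that most septin complexes share, had 1 probe, detected on 0 arrays, with levels of 4.72 to 5.24. It was therefore not measured above background here, which says nothing of its presence.

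With lines rather than cultures as replicates, no stage differed from normal for any of the 7 genes at an adjusted p under 0.05. These tests averaged the cultures of each line and compared 1 hyperplasia, 1 adenoma and 4 carcinoma lines with the 2 normal lines in 1 limma fit. They called 0.325% of probes (34) in hyperplasia against normal, 0% in adenoma and 0% in carcinoma, where 1277 (12.2%), 422 (4.04%) and 293 (2.80%) of 10453 probes had an unadjusted p under 0.05. Of the 7 genes, Cdc42ep3 alone had an unadjusted p under 0.05, in hyperplasia (0.0461) and adenoma (0.0393). The 3 comparisons share the normal lines.

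Cdc42ep3 averaged 9.44 ± 0.93 in carcinoma lines (SD, n = 4) and 8.26 ± 0.27 in normal lines (SD, n = 2), a difference of 1.17 (SE 0.56, limma unadjusted p 0.0742, adjusted p 1). Differences lower than this were found for 99.4% of tested probes. HpAF1 minus the normal lines was 1.92 (SE 0.79, adjusted p 0.400) and AdAF1 minus the normal lines 2.00 (SE 0.79, adjusted p 1). All of these sizes depend on NF3. Without its culture 2 the differences were 1.19 in hyperplasia, 1.27 in adenoma and 0.44 in carcinoma, and without its culture 1 they were 2.65, 2.73 and 1.90. With culture 1 arrays of all lines only, the carcinoma difference was 0.41 (unadjusted p 0.445), and with culture 2 arrays only it was 1.94 (0.0272).

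**Figure D3:**
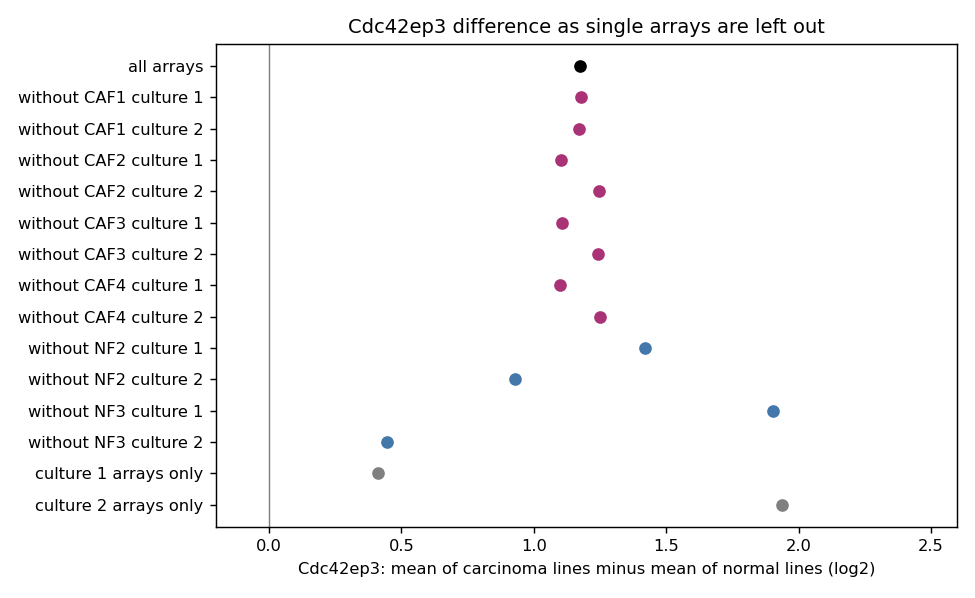
Difference in Cdc42ep3 between the carcinoma and the normal lines (horizontal axis, log2, carcinoma minus normal) with all arrays (black), with 1 carcinoma array (purple) or 1 normal array (blue) left out, and with the arrays of 1 culture number only (grey). The value is 1.17 with all arrays and lies between 0.41 and 1.94 in the other fits, always above 0. The lowest and highest values are those with culture 1 arrays only and culture 2 arrays only, and the fits without an NF3 culture lie close to them (0.44 and 1.90).

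With all arrays the other genes had smaller differences from normal than Cdc42ep3 in each stage, but without culture 2 of NF3 Cdc42ep5 stood further above normal than Cdc42ep3 in adenoma and about as far in carcinoma. Cdc42ep4 averaged 9.55 ± 0.34 in carcinoma lines (SD, n = 4) and 9.90 ± 0.11 in normal lines (SD, n = 2), with differences from normal of -0.74 (SE 0.36) in hyperplasia, -0.55 (SE 0.36) in adenoma and -0.36 (SE 0.25) in carcinoma. Cdc42ep5 averaged 8.41 ± 1.09 in carcinoma lines (SD, n = 4) and 8.27 ± 0.09 in normal lines (SD, n = 2), with differences of 0.73 (SE 0.90) in hyperplasia, 1.06 (SE 0.90) in adenoma and 0.14 (SE 0.64) in carcinoma. Cdc42ep2 differed by -0.33 (SE 0.23), -0.11 (SE 0.23) and -0.07 (SE 0.16) in the same order of stages. None of these 9 differences passed the limma test (adjusted p 0.462 to 1).

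Cdc42 averaged 8.52 ± 0.32 in carcinoma lines (SD, n = 4) and 8.28 ± 0.06 in normal lines (SD, n = 2), with differences of -0.36 (SE 0.34) in hyperplasia, 0.23 (SE 0.34) in adenoma and 0.24 (SE 0.24) in carcinoma. Septin2 differed by -0.11 (SE 0.26) in hyperplasia, -0.19 (SE 0.26) in adenoma and -0.29 (SE 0.18) in carcinoma. Septin9 differed by -0.79 (SE 0.37, limma unadjusted p 0.0689) in hyperplasia, -0.27 (SE 0.37) in adenoma and -0.22 (SE 0.26) in carcinoma. Over the 7 genes the median difference was -0.33 in hyperplasia, -0.11 in adenoma and -0.07 in carcinoma, against -0.01, -0.02 and 0.01 over all tested probes.

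**Figure D4:**
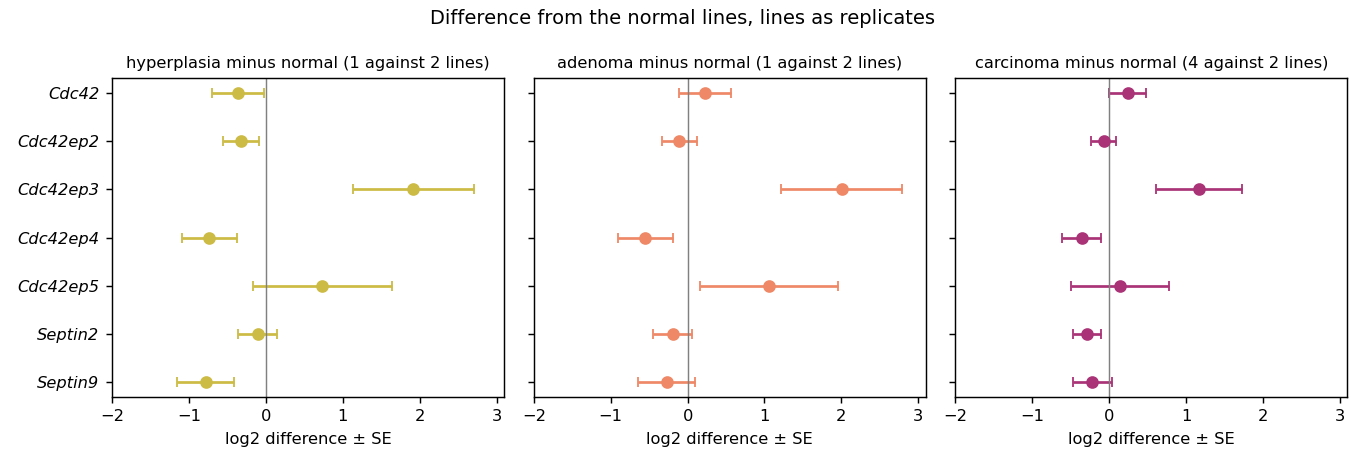
Difference from the 2 normal lines (horizontal axes, log2) of the hyperplasia line, the adenoma line and the 4 carcinoma lines for the 7 tested genes, with bars of 1 SE and lines as replicates. With all arrays Cdc42ep3 has the highest value in each panel (1.92, 2.00 and 1.17), and no difference passed an adjusted p of 0.05.

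The effectors did not follow a single pattern over the 8 line means. As a description, Cdc42ep4 ran opposite to Cdc42ep5 (Pearson r -0.82, Spearman coefficient -0.76) and to Cdc42ep3 (Pearson -0.73, Spearman -0.76), and alongside Cdc42ep2 (Pearson 0.81, Spearman 0.79). Cdc42ep3 and Cdc42ep5 were less alike (Pearson 0.34, Spearman 0.45), with CAF2 the fourth highest line for Cdc42ep3 and the lowest for Cdc42ep5, and CAF3 next to lowest for Cdc42ep3 and the third highest for Cdc42ep5. The level of Cdc42 went with that of Cdc42ep3 only weakly (Pearson 0.37, Spearman 0.52). All such values share the same 16 arrays and their normalization.

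Genes most like the effectors were sought by Pearson r over the 8 line means among genes called between lines. For Cdc42ep5, 15 of 1928 candidates passed 0.9, led by Nrg1, a ligand of ErbB receptors (r 0.98), Mfap2, a microfibril protein (0.97), and Pi4k2b, a phosphatidylinositol kinase (0.97). Mfap2 averaged 6.66 in CAF2 and 11.03 in CAF1, and Nrg1 averaged 7.20 in CAF2 and 9.15 in CAF1. For Cdc42ep4, 17 candidates passed 0.9, led by Vps41, a subunit of a vesicle tethering complex (0.97), Pcbd2 (0.96) and Clptm1l (0.96). For Cdc42ep3, chosen for this search after its values were seen, 3 of 1929 passed 0.9: Irak2, a kinase of interleukin 1 signalling (0.92), Rassf7 (0.92) and Uchl1, a deubiquitinating enzyme (0.91), with Rassf7 and Uchl1 detected on 9 arrays each.

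Further gene lists place these genes in their pathway. Over all 7454 genes tested, 25.9% were called among the lines. Of the other septins, 3 of 4 tested genes were called. Septin8, a close relative of Septin6 and Septin11, was lowest in HpAF1 (8.65) and highest in CAF2 (10.82, adjusted p 0.00118). Septin5 was lowest in CAF1 (8.38) and highest in AdAF1 (9.47, adjusted p 0.0103), and Septin3, detected on 3 arrays, was highest in HpAF1 (7.27, adjusted p 0.0494). The other line means of Septin3 were 5.02 to 5.85. It may have passed the detection filter only through HpAF1, so its call is not independent of that filter. Septin6 did not pass (adjusted p 0.744).

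Of the septin and actomyosin partners, 2 of 10 tested genes were called, both highest in CAF2 and lowest in HpAF1. Myl6, a light chain of non-muscle myosin, averaged 14.28 in CAF2 and 11.96 in HpAF1 (adjusted p 0.00232). Myh9, its heavy chain, averaged 12.15 in CAF2 and 10.58 in HpAF1 (adjusted p 0.0190). Myl12b (0.0627) and Myl12a (0.123) did not pass. Both lines had high marker sums of other cell types, pericyte and adipocyte in CAF2 and mesothelial in HpAF1. Each sum was raised by few of its markers, and the part of these in the levels was not tested.

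Of the other Cdc42 effectors, 2 of 14 were called. Fnbp1l, which joins Cdc42 to actin assembly at membranes, was lowest in HpAF1 (8.79) and highest in CAF2 (10.37, adjusted p 0.0411). Iqgap1, a scaffold that binds Cdc42 and actin, was lowest in NF3 (10.24) and highest in CAF1 (11.14, adjusted p 0.0493). Trip10 (0.120) and Wasl (0.134) did not pass. No exchange factor for Cdc42 was called (0 of 6 by limma, 4 of 6 at an unadjusted p under 0.05, where 41.4% of all genes tested passed, with Itsn2 nearest at an adjusted p of 0.0509), and no GTPase-activating protein or dissociation inhibitor (0 of 4, 1 of 4 at an unadjusted p under 0.05, Arhgdib, adjusted p 0.0868). No gene of these lists was called in a stage comparison.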

How the data were processed

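The members and the gene lists were chosen with earlier results of these data known. The authors deposited a table of linear probe intensities, per the file headers not normalized, each with a detection p-value that compares it with the array's negative controls, in steps of 0.00125. A second deposited table holds intensities that the authors, by its values, quantile normalized without background subtraction (every array median at 134), and it served as an alternative. The sources used here do not give the scanner software. Probes were named from the platform annotation (23978 of 25697 with a symbol, 1719 without, 0 with several).

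Here neqc (limma 3.58.1, R 4.3.3, offset 16) corrected the background, quantile normalized the intensities and took log2, which compresses low values. Probes detected (p under 0.01) on at least 2 arrays were tested. Each gene was represented by the probe with the highest mean level. Lines were compared in a model that takes cultures as replicates (degrees of freedom 8 residual and 3.69 prior). Stages were compared over line means (4 residual and 2.96 prior), with the spread of the single hyperplasia and adenoma lines taken from the other stages. All p-values are two-sided and Benjamini-Hochberg adjusted over all tested probes, with a threshold of 0.05. The scripts were tested on simulated data.

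The text names all member probes, for each member called among lines the 3 genes of highest Pearson r with it, and up to 4 genes of each reported list by the F test (a further list is not reported here); Cdc42ep3 was added to the search after its values were seen. Culture numbers were not taken to pair the samples. Over 28 pairs of lines the culture differences correlated between -0.20 and 0.65 (median 0.08, 12 over 0.1). Culture 1 minus culture 2 was nonetheless below 0 for Cdc42ep5 in every line (-0.002 in CAF1 to -1.22 in NF3). For Cdc42ep3 it was above 0 in every line (0.04 in HpAF1 to 2.92 in NF3) but CAF1 (-0.02). Whether culture number marks a shared condition was not tested. Alternatives covered normalization, offset, detection filter, threshold, blocks, samples fitted and left-out arrays and lines. The number of arrays limits precision.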

Additional observations from a re-analysis of the deposited data

Results flagged for a closer look

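Among the carcinoma line means of Cdc42, CAF1 (8.99) stood apart from CAF2, CAF3 and CAF4 (8.33 to 8.38). Its gap to the nearest of them was 0.927 of the whole range, above the Dixon limit for 4 samples, which chance passes for about 1 in 20 groups. None of the other 6 tested genes passed this limit.

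Cdc42 was also the gene whose stages lay on opposite sides of the normal lines, with HpAF1 (7.91) below and AdAF1 (8.50) and all carcinoma lines (8.33 to 8.99) above both NF3 (8.31) and NF2 (8.24). Adenoma minus hyperplasia was 0.59 (SE 0.39, limma adjusted p 0.877) and carcinoma minus hyperplasia was 0.60 (SE 0.31, adjusted p 0.414). These differences were picked out by direction, and neither passed the test. The margin of CAF4 over NF3 was 0.016 (SE 0.22, limma adjusted p 0.983), and the NF3 cultures read 8.65 and 7.97.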

How the results depend on the processing

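The line calls depended on NF3 and on the narrow margin of Cdc42ep4. Of the 7 probes, 2 were called among lines with all arrays and 4 at an adjusted p under 0.10. With 1 array or line left out, 1 (without line HpAF1) to 5 (without line NF3) were called. Over all 10453 tested probes 2626 were called with all arrays, 3819 at an adjusted p under 0.10 and 1126 without line HpAF1. That count is not given without line NF3. Cdc42ep5 was called in every alternative run (adjusted p 0.000215 to 0.0253). Cdc42ep4 was lost with normexp and median scaling (0.127), and Cdc42ep3 was gained with that scaling (0.0449), the authors' values (0.0313) and an offset of 50 (0.0422). Line against line, the 13 calls became 23 at an adjusted p under 0.10, 20 with the culture number as a replicate block, and 3 to 47 with 1 array or line left out (3 without line CAF1, 47 without culture 1 of NF3). The replicate block also brought Cdc42ep3 to an adjusted p of 0.0223 among lines. Whether culture numbers pair the cultures is not known. Of all probe and pair combinations, 7.03% were called with all arrays. That share is not given for the 0.10 threshold, the replicate block or the run without line CAF1. In those runs a change in the member calls cannot be told from a change over the whole array. A run without a line also lacks every pair with that line, called or not. Its count therefore cannot be set directly against the 13.

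No stage comparison called a member, except hyperplasia with only the hyperplasia and normal lines fitted, which called 1 (Cdc42ep3, unadjusted p 0.00104, with 3 lines in the fit). Over the whole array the hyperplasia count was 34, against 0 to 780 in the alternatives (780 with arrays taken as independent). The carcinoma count was 0, against 0 to 7, and the adenoma count 0, against 0 to 2. Among lines 2626 became 1126 to 3819.

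Small differences changed sign. Cdc42ep2 in carcinoma was 0.12 with normexp and median scaling and 0.062 with culture 2 only (-0.25 to 0.11 with 1 array or line left out), and in adenoma 0.12 with culture 2 only (-0.29 to 0.072). Cdc42ep5 in carcinoma was -0.031 with culture 2 only (-0.17 to 0.57). With culture 1 only, Septin9 was 0.34 in carcinoma (-0.71 to 0.28) and 0.28 in adenoma (-0.77 to 0.22), and Septin2 in hyperplasia was 0.056 (-0.33 to 0.11). The cause of these changes was not tested. Fits with 1 array of a line assume that it varies like the other lines.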
